A study of Mus musculus with 2 samples.

Results

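Cells of a passage 20 culture of mouse brain pericytes (PC20) that carried the most RNA of DNA replication genes were described. They were chosen by a score, the summed unique molecular identifiers (UMIs, each tagging 1 captured RNA molecule) of *Mcm2*, *Mcm3*, *Mcm4*, *Mcm5*, *Mcm6*, *Pcna*, *Dtl*, *Pclaf* and *Rad51ap1* divided by all UMIs of the cell. The top 10% by this score, 475 of 4749 kept PC20 cells, are called members, and the other 4274 kept PC20 cells are the contrast. The 2 libraries together held 14699 kept cells.

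The cultures were primary brain pericytes (PCs), contractile cells of the capillary wall, from pooled brains of 6 wild type female C57BL/6N mice aged 6-8 weeks per isolation. One culture was sequenced at passage 5 (PC5) and one at passage 20, with 1 droplet 3′ library each. The study's methods name separate isolations for the passages and the text deposited with the files names 1, so passage and isolation cannot be told apart. Of 4884 PC20 barcodes, 4749 had more than 1000 genes and under 20% of UMIs from mitochondrial genes, with 191122251 UMIs between them. In PC5, 9950 of 10629 barcodes were kept, with 223054273 UMIs, and the same rule gave 995 members and 8955 other cells. The libraries shared 20 cell barcodes, of which 2 were PC20 members and 0 were members in both. The values of the same cells chose the members, and each passage has 1 library, so every difference here is a description without a test.

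A dividing cell passes from G1 into S phase, in which it copies its DNA, and then through G2 into mitosis. In G1 the origin recognition complex, *Cdc6* and *Cdt1* load rings of MCM proteins onto origins of replication. At the start of S phase kinases turn these rings into active helicases, and polymerases held by the PCNA clamp copy the strands. E2F transcription factors drive many of these genes in late G1, while histone genes are expressed mainly during S phase and mitotic genes later. A score of this kind is a range along these phases and not a cell type.

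The start regions of the genes were searched for short words known from cell cycle promoters. E2F factors bind words such as TTTCCCGC, TTTCGCGC, TTTGCCGC and TTTGGCGC, and repressor complexes that act on mitotic genes use a CHR element, searched here as TTTGAA and TTCGAA, the second of which is its own reverse complement. The window ran from 250 bases before to 50 bases after each RefSeq start on GRCm38.p6, and both strands were searched. An E2F-type word was in the window of 5 of the 8 score genes with a window, of 23 of 85 genes in 6 replication lists (27.1%), of 0 of 30 mitotic genes, and of 2.61% of all 27025 genes with a window. A CHR-type word was in 1 of the 8, in 15 of 85 replication genes (17.6%), in 23 of 30 mitotic genes (76.7%) and in 21.7% of all genes. The CCAAT box, searched as CCAAT, was in 8 of the 8, in 44 of 85 replication genes (51.8%), in 24 of 30 mitotic genes (80.0%) and in 41.1% of all genes. A match is a description of the letters and not a binding site. Stretches that end before the start are shown for 3 score genes and for the mitotic gene *Cdc20*, with E2F-type words or, for *Cdc20*, the CHR-type word in capitals. In *Mcm5* 2 words on opposite strands overlap.

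*Mcm5*, chr8:75109326-75109397, plus strand: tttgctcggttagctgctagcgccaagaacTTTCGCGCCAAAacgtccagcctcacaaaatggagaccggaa

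*Mcm6*, chr1:128359715-128359782, minus strand: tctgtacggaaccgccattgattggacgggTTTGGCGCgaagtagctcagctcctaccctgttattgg

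*Dtl*, chr1:191575545-191575582, minus strand: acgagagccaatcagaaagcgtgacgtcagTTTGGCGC

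*Cdc20*, chr4:118437344-118437391, minus strand: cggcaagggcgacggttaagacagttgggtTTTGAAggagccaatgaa

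Members held a median of 999 score UMIs per 1000000 (middle 50% from 822 to 1255), and the other cells 169. In counts this was a median of 34 UMIs of the 9 genes in a member and 5 in another cell. The lowest member had 716.68 per 1000000 and the highest other cell 716.64, and 85 members and 130 other cells lay within 10% of that limit. Of the members, 37 held fewer than 10 UMIs of the 9 genes, and 39 held fewer than 10000 UMIs in all. Whole-cell depth was close in PC20, with a median of 33216 UMIs in members and 33489 in the other cells. More than 2 times the library's median UMIs were found in 38 members (8.00%) and 539 other cells (12.6%). No doublets were removed. With every cell thinned to 16000 UMIs, which left out 59 members and 415 other cells, members had a median of 3937.5 genes and other cells 3745. Unthinned, the medians were 5512 and 5342.5 genes. Mitochondrial genes took a median of 2.37% of UMIs in members and 1.98% in the others, and ribosomal protein genes 29.3% and 31.7%. In PC5 depth was less even, with medians of 26350 UMIs and 5180 genes in members and 21100 and 4378 in the other cells. Of the 995 PC5 members, 101 held fewer than 10 UMIs of the 9 genes.

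The 9 genes chose the members, and their levels show how unequally they did so. Levels are CPM, the UMIs of a gene summed over a group of cells and scaled to a total of 1000000, and differences are the log2 ratio of CPM in members over the other cells of the same library. Parentheses give 95% intervals that cover counting error only. *Pclaf* encodes a small protein that binds PCNA at forks. It had 300.4 CPM (292 to 309) in PC20 members and 57.6 (56.5 to 58.7) in the other cells. It supplied 28.3% of the members' score UMIs and was the leading score gene in 280 of 475 members. In PC5 its share was 46.2%, and it led in 796 of 995 members. *Mcm3*, a helicase subunit, was next in PC20 with 158 CPM in members against 34.8, 14.9% of the score UMIs. *Mcm6*, another subunit, had 139.7 against 26.1 CPM and the highest log2 ratio of the 9, 2.42 (2.35 to 2.49). *Mcm2* had 99.6 against 35.4 CPM and the lowest, 1.49 (1.41 to 1.57). The mix differed between passages, with the 5 *Mcm* genes together at 52.8% of the score UMIs in PC20 members and 41.0% in PC5 members. *Mcm4*, another subunit, took 9.45% in PC20 and 10.6% in PC5. *Pcna*, the sliding clamp, had 91.4 CPM in PC20 members and 46.4 in PC5 members. *Dtl*, which marks proteins for destruction at PCNA, had 58.0 and 35.4 CPM. *Rad51ap1*, a recombination factor, had 50.5 and 27.9 CPM. Members chosen without 1 gene kept 90.7% to 94.9% of the PC20 members, except without *Pclaf*, where 82.1% were kept (71.1% in PC5). Choosing on thinned cells gave 428 members, of which 348 were shared, 83.7% of the 416 members deep enough to be thinned.

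**Figure D1:**
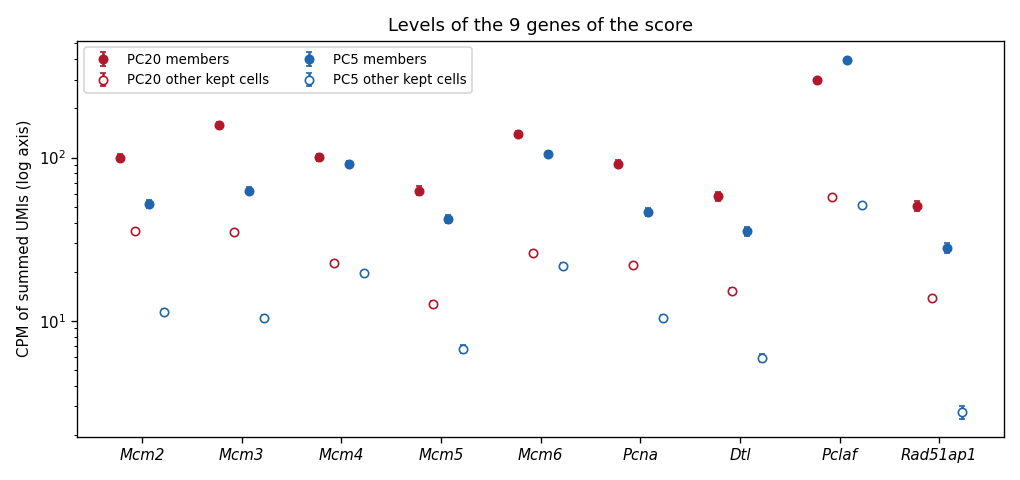
CPM of the 9 score genes on a log axis in members (filled) and other kept cells (open) of PC20 (red) and PC5 (blue), with bars for 95% counting intervals. *Pclaf* had the most UMIs in both sets of members and was higher in PC5 members than in PC20 members (396 and 300.4 CPM), while the other 8 genes were higher in PC20 members.

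Genes with at least 500 UMIs over the kept cells of a library are called measured. Across the 10102 measured PC20 genes, 640 (6.34%) were more than 1.5-fold higher in members and 263 (2.6%) more than 1.5-fold lower. The median log2 ratio of all measured genes was 0.08. In PC5, 1065 of 10557 genes (10.1%) were higher and 353 (3.34%) lower, with a median of 0.12. The rule used these same cells, so nothing is read from the counts beyond a description. Of 9510 genes outside the score measured in both libraries, 416 were higher in both, 73.8% of the 564 higher in PC20 and 43.1% of the 965 higher in PC5. Lower in both were 63, 29.2% of the 216 lower in PC20 and 33.2% of the 190 lower in PC5.

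Outside the score, the genes that load and restrain origins were mostly higher. Of 11 measured genes of origin licensing, 8 passed 1.5-fold and 0 were lower, with a median log2 ratio of 1.16 (1.41 in PC5). *Cdc6*, the loader of the MCM rings, had 26.9 CPM (24.5 to 29.4) in members and 4.14 (3.84 to 4.46) in other cells, a log2 ratio of 2.70 (2.53 to 2.87). In PC5 it had 20.1 against 3.19 CPM, 2.66. *Mcm7*, the ring subunit left out of the score, had a log2 ratio of 1.89 in PC20 and 1.41 in PC5. *Cdt1*, the partner of *Cdc6*, and *Gmnn*, which encodes its inhibitor geminin, were both higher in members. *Cdt1* had 81.1 against 36.3 CPM (1.16), and *Gmnn* 127 against 39.1 CPM (1.69). *Orc6*, a subunit of the origin recognition complex, had 130.0 against 50.5 CPM (1.36), while *Orc4*, another, had 57.8 against 50.2 CPM (0.21).

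The genes that fire the helicase had a median log2 ratio of 1.51 over 11 measured genes, of which 10 passed 1.5-fold (1.90 in PC5). *Cdc45*, a part of the active helicase, had 43.4 CPM in members and 11.7 in other cells (1.89). *Gins1*, of the same helicase, had 15.3 and 4.04 CPM (1.92). *Donson*, a helicase assembly factor, had 9.71 and 2.12 CPM (2.20). *Wdhd1*, which links the helicase to a polymerase, had 16.2 and 3.82 CPM (2.08). The exception was *Dbf4*, the activator of the kinase *Cdc7*, with 98.1 and 96.3 CPM, a log2 ratio of 0.03 (-0.05 to 0.10). In PC5 the ratio of *Dbf4* was 1.31 (1.25 to 1.38).

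Of 25 measured genes of polymerases and the fork, 22 passed 1.5-fold and 0 were lower, with a median of 1.498 (1.473 in PC5). *Dscc1*, of the complex that loads PCNA for cohesion, had 15.4 CPM in members and 2.49 in other cells (2.63). *Fen1*, the flap nuclease of the lagging strand, had 24.8 and 6.09 CPM (2.03). *Prim1*, the primase, had 50.4 and 12.6 CPM (2.00), and *Lig1*, the ligase that joins the fragments, had 112 and 32.6 CPM (1.79). The lowest was *Pold4*, the small subunit of polymerase delta, with 118 and 122 CPM (-0.04). In PC5 *Pold4* was lower in members, with 25.4 and 48.8 CPM (log2 ratio -0.94, interval -1.06 to -0.82).

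Nucleotide supply genes passed 1.5-fold in 10 of 12, with a median of 1.22 (1.51 in PC5). *Tk1*, thymidine kinase, had 74.0 CPM (70.0 to 78.1) in members and 15.1 (14.6 to 15.7) in other cells, a log2 ratio of 2.29 (2.19 to 2.38). *Dut*, which removes dUTP and held the most UMIs of the list, had 399 and 208 CPM (0.94). The ribonucleotide reductase subunits differed. *Rrm1* had 171 and 53.6 CPM (1.67) and *Rrm2* had 332 and 143 CPM (1.22). *Rrm2b*, the subunit induced by p53, had 29.9 and 27.7 CPM, a ratio of 0.11 (-0.02 to 0.24).

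Chromatin assembly and DNA methylation genes passed 1.5-fold in 13 of 15, with a median of 1.31 (1.53 in PC5). *Chaf1b*, of the complex that places histones behind the fork, had 28.4 CPM in members and 6.23 in other cells (2.19). *Dnmt1*, the maintenance DNA methyltransferase, had 198 and 66.0 CPM (1.59), and *Uhrf1*, its guide to copied DNA, had 74.2 and 25.3 CPM (1.55). *Slbp*, which binds the stem-loop of histone mRNAs, had 78.3 and 26.2 CPM (1.58). *Asf1a*, a histone chaperone, had the lowest ratio, 0.18.

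Fork checkpoint and repair genes passed 1.5-fold in 24 of 26, with a median of 1.44 (1.96 in PC5). *Exo1*, an exonuclease, had 17.2 CPM in members and 3.91 in other cells (2.14). *Chek1*, the checkpoint kinase, had 33.1 and 7.52 CPM (2.14), and *Clspn*, its adaptor claspin, had 54.3 and 13.3 CPM (2.03). *Brip1*, a helicase of repair, had 34.4 and 7.97 CPM (2.11), and *Timeless*, of the fork protection complex, had 24.1 and 5.60 CPM (2.11). *Atrip*, the partner of the kinase ATR, had 19.9 and 17.9 CPM (0.15). Over the 6 replication lists together, 87 of 100 measured genes passed 1.5-fold in PC20 and 0 were lower, with a median of 1.42. In PC5 it was 88 of 97 with 1 lower, *Pold4*, and a median of 1.69. The share higher among all measured genes was 6.34% and 10.1%.

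**Figure D2:**
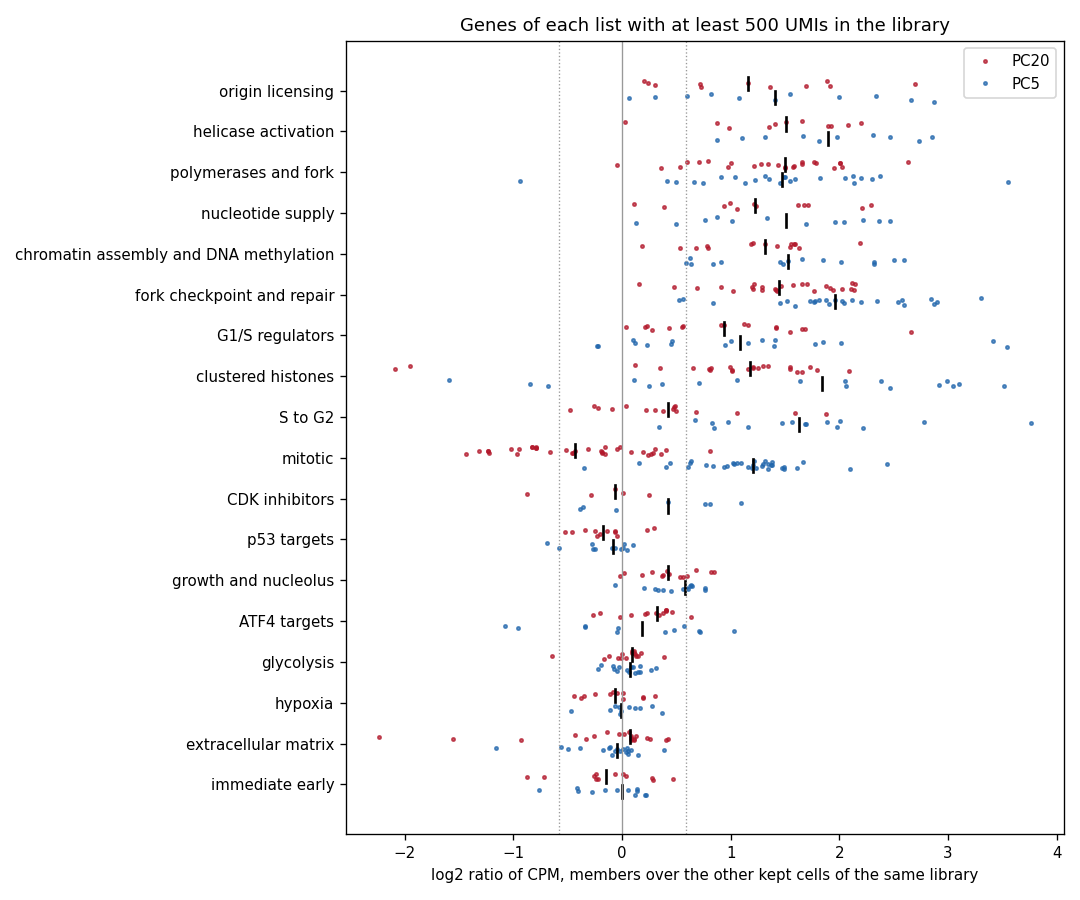
Log2 ratio of CPM in members over the other kept cells, 1 point per measured gene of each list, for PC20 (red) and PC5 (blue). Black bars are list medians and dotted lines mark 1.5-fold. The replication lists lie to the right in both libraries, and the mitotic list has its median at -0.43 in PC20 and 1.20 in PC5.

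Regulators of the G1/S step passed 1.5-fold higher in 10 of 17, with a median of 0.94 (1.08 in PC5), where 6.34% of all PC20 genes did. *Ccne2*, a cyclin E, had 15.4 CPM (13.6 to 17.4) in members and 2.44 (2.21 to 2.68) in other cells, a log2 ratio of 2.66 (2.44 to 2.89). In PC5 it had 49.1 and 4.60 CPM (3.42). Its kinase *Cdk2* had 18.4 and 6.89 CPM (1.42). Both the activator *E2f1* and the repressors *E2f7* and *E2f8* were higher, with ratios of 1.41, 1.66 and 1.68. The D cyclins, which act earlier in G1, did not pass 1.5-fold. *Ccnd2* had 238 and 205 CPM (0.21), *Ccnd1* 1224 and 1014 CPM (0.27), and *Ccnd3* 32.3 and 31.4 CPM (0.04).

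Among 5 measured CDK inhibitors, 1 was lower and 0 higher past 1.5-fold, and over all genes 2.6% were lower and 6.34% higher. *Cdkn1b*, which encodes p27, an inhibitor of cyclin E kinase, had 51.5 CPM (48.2 to 55.0) in members and 94.2 (92.8 to 95.7) in other cells, a log2 ratio of -0.87. A *Cdkn1b* UMI was found in 71.8% of members and 84.4% of other cells. In PC5 its ratio was 0.42, and of 7 measured inhibitors 3 were higher and 0 lower. The list median was 0.42 over 7 genes in PC5 and -0.07 over 5 in PC20, so the medians do not cover the same genes. With the 10% of PC20 cells highest in mitotic genes left out of the other cells, the PC20 median was 0.26. In the top 5% by score it was -0.36, and with the score without *Pclaf* -0.37. *Cdkn1a*, which encodes p21, had 202 and 201 CPM (0.01).

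Of the genes outside the score with the highest ratios, most belonged to the lists above. The highest was *Rmi2*, of the complex that dissolves recombination intermediates, with 12.5 CPM in members and 1.77 in other cells, a log2 ratio of 2.82 (2.57 to 3.08). *Tcf19*, a gene named as a transcription factor, had 16.8 and 2.92 CPM (2.52). Others of the 15 highest were *Cdc6*, *Ccne2*, *Dscc1*, *Tk1*, *Donson*, *Chaf1b*, *Exo1*, *Chek1*, *Brip1*, *Timeless*, the linker histone *Hist1h1b* and *Wdhd1*. Their PC5 ratios ran from 1.90 for *Timeless* to 3.51 for *Hist1h1b*.

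Histone UMIs were uneven among the members. Clustered histone genes, which supply histones to copied DNA, passed 1.5-fold higher in 20 of 24 measured and lower in 2. Over all genes the shares were 6.34% and 2.6%. The list median was 1.18, and in PC5 it was 1.84 over 18 measured genes. *Hist1h2ap*, an H2A gene with the most UMIs of the group, had 403 CPM (394 to 413) in members and 132 (131 to 134) in other cells, a ratio of 1.61. *Hist1h1b*, a linker histone, had 268 and 63.1 CPM (2.09). *Hist1h2ae*, *Hist1h1e* and *Hist1h1c*, the others of the 5 with the most UMIs, had ratios of 1.34, 1.25 and 0.80. The lower genes were *Hist1h2bc*, with 12.1 and 46.9 CPM (-1.95), and *Hist3h2a*, with 1.88 and 8.01 CPM (-2.09), both also lower in PC5 (-0.68 and -0.85). Copies of these genes are close in sequence, so reads may be split between them. How fully a 3′ library captures their RNA was not tested, so these are levels of captured UMIs. Of the variants expressed throughout the cycle, *H2afz* (H2A.Z) had a ratio of 0.59 and *H3f3b* (H3.3) -0.02.

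Cell by cell, the members fell on both sides of a sparse middle. Clustered histone UMIs were under 500 per 1000000 in 177 of 475 members (37.3%), between 500 and 1000 in 34, and above 1000 in 264 (55.6%), with limits set after the values were seen. Among the other PC20 cells 61.9% were under 500 and 21.3% above 1000. In PC5 members, 40.8% were under 500, 279 of 995 lay between, and 31.2% were above 1000. The members' median was 1370.5 per 1000000 in PC20 and 651 in PC5, against 337 and 228 in the other cells.

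**Figure D3:**
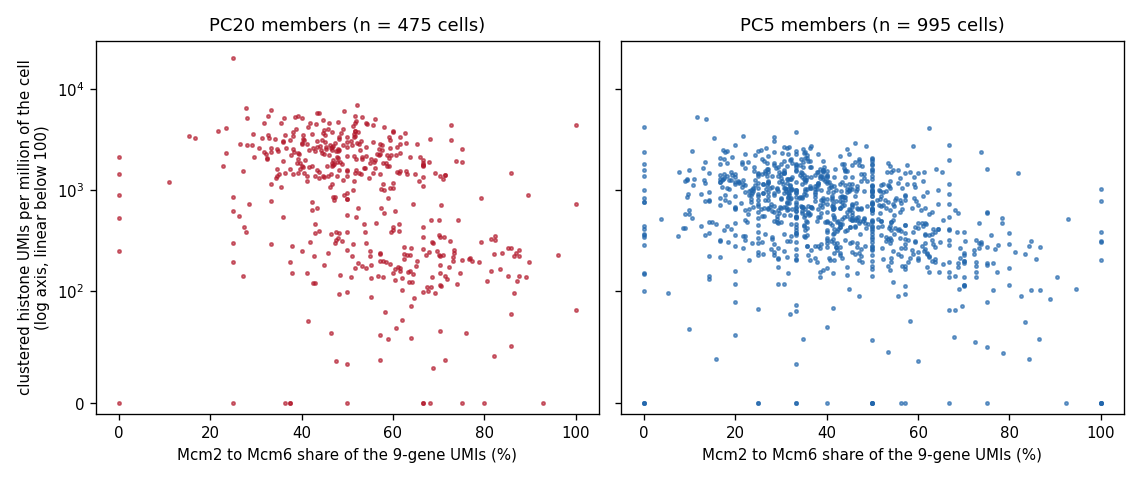
Each point is a member, with the share of its score UMIs from *Mcm2* to *Mcm6* on the horizontal axis (%) and its clustered histone UMIs per 1000000 on the vertical axis (log above 100, linear below). In PC20 few points lie between 500 and 1000, and most cells with a high Mcm share are low in histones, while the PC5 members form 1 broad band.

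The Mcm share separated these members further. The 475 were sorted by the share of *Mcm2* to *Mcm6* in their score UMIs and cut in 3 groups of nearly equal size. The Mcm-rich group (158 cells, median share 68.6%) had a median of 237 histone UMIs per 1000000, the middle group (159 cells, 51.9%) 1710.1 and the Mcm-poor group (158 cells, 38.5%) 2108. Median depth was 30560.5, 35826 and 33402 UMIs. The 35 genes of the mitotic list summed to a median of 913, 1666 and 2006 per 1000000. The groups were made from the same cells, and the genes of the share itself are left out of what follows.

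*Ung*, the uracil glycosylase that removes uracil from DNA, had 18.1 CPM in the Mcm-rich and 5.63 in the Mcm-poor group, a log2 ratio of 1.68 (1.09 to 2.31). *Recql4*, a helicase of origin firing, had 24.9 and 15.3 CPM (0.70), and *Timeless* 24.5 and 16.5 CPM (0.57). *Mcm7* differed little, with 88.0 and 81.7 CPM (0.11). In the other direction, *Hist1h2ap* had 124 and 664 CPM (-2.42) and *Hist1h1b* 92.7 and 396 CPM (-2.09). *Nusap1*, a spindle protein gene, had 10.6 and 58.1 CPM (-2.45), and *Ccna2*, which encodes the cyclin of S and G2, had 27.9 and 96.1 CPM (-1.78). *Rrm2* had 240.2 and 410.3 CPM (-0.77). Of the members in the mitotic top 10%, 13 were in the Mcm-poor and 0 in the Mcm-rich group, and without them the ratios were -1.90 for *Nusap1*, -1.57 for *Ccna2* and -2.44 for *Hist1h2ap*. In PC5 the cut by rank fell at other shares, with the Mcm-rich group from 48.4% and the Mcm-poor group up to 33.3%. In PC20 these limits were 59.5% and 46.4%. The PC5 Mcm-rich and Mcm-poor groups held 27 and 147 cells of that library's mitotic top 10%. The PC5 ratios were 1.70 for *Ung*, -1.13 for *Hist1h2ap*, -0.97 for *Hist1h1b* and -2.23 for *Nusap1*. Without the mitotic top 10% they were 1.01, -1.34, -0.997 and -1.95. Other genes differed between the libraries. *Rrm2* had a ratio of -0.02 (-0.14 to 0.10) in PC5. *Cdc6* had -0.23 (-0.59 to 0.12) in PC20 and 1.23 (0.88 to 1.59) in PC5, and *Ccne2* -0.53 and 1.25. In PC5 without the mitotic top 10%, *Cdc6* had 0.70, *Ccne2* 0.60 and *Rrm2* -0.20.

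**Figure D4:**
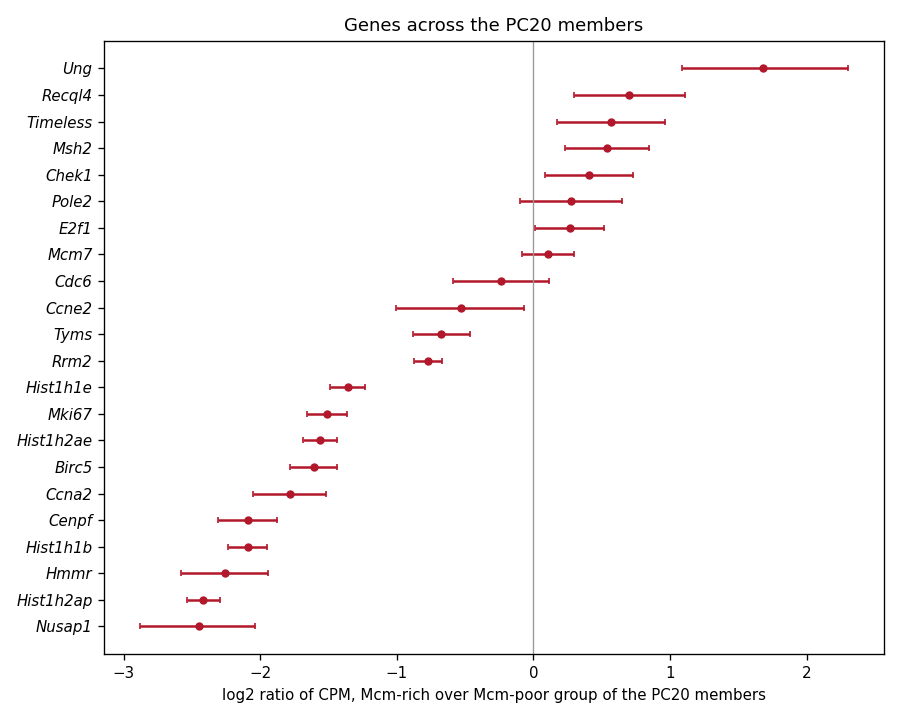
Log2 ratio of CPM in the Mcm-rich over the Mcm-poor group of the PC20 members, with bars for 95% counting intervals, for genes chosen after their values were seen. *Ung* had the highest ratio shown (1.68), and histone and mitotic genes had the lowest, down to -2.45 for *Nusap1*.

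Genes that act from S phase into G2 were split in PC20. Of 16 measured, 4 passed 1.5-fold higher and 0 lower, with a median of 0.42, while in PC5 15 of 16 were higher with a median of 1.63. The shares of all genes that were higher were 6.34% and 10.1%. Of the UMIs of these genes in the other PC20 cells, 38.9% lay in the 460 that were in the top 10% of PC20 cells by mitotic score. Without those cells the PC20 median was 0.91, and without that top 10% in both groups 0.85. In PC5 the median without that library's top 10% among the other cells was 2.22, and with the score without *Pclaf* it was 0.94. Over cells, the list's median was 2215 per 1000000 in PC20 members and 780.3 in the others. The 4 were *Mybl2*, a transcription factor that follows E2F (1.88), the condensin genes *Ncapg2* (1.59) and *Smc2* (1.05), and *Top2a*, topoisomerase II alpha (0.68). *Ccna2* had 64.8 CPM in members and 69.1 in other cells (-0.09), against 76.2 and 20.6 CPM in PC5 (1.89). *Mki67*, the proliferation marker, had 195 and 158 CPM (0.30), against 84.0 and 21.4 CPM in PC5 (1.97).

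The mitotic list had medians of opposite sign in the libraries. Of 35 genes in PC20, 1 was higher and 14 lower past 1.5-fold and 20 lay between, with a median of -0.43, against 6.34% higher and 2.6% lower over all genes. In PC5, 31 were higher and 0 lower, with a median of 1.20, against 10.1% higher and 3.34% lower over all genes. Members chosen without *Pclaf* had a mitotic median of -0.59 in PC20 and 0.42 in PC5. *Cdc20*, an activator of the complex that ends mitosis, had 18.2 CPM (16.3 to 20.3) in PC20 members and 49.3 (48.2 to 50.3) in the other cells, a log2 ratio of -1.44. In PC5 it had 14.5 and 9.47 CPM (0.61). *Ube2c*, the ubiquitin enzyme of that complex, had 136 and 319.6 CPM (-1.23) in PC20 and a ratio of 0.63 in PC5. *Plk1*, the mitotic kinase, had ratios of -1.24 and 1.23, and *Ccnb1*, cyclin B1, -0.83 and 1.34. The one higher gene in PC20 was *Aurkb*, the kinase of the chromosomal passenger complex, with 72.8 and 41.6 CPM (0.81).

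The summed level and the level of a typical cell differed for the mitotic list, and 51.3% of the other PC20 cells' mitotic UMIs lay in 460 of those 4274 cells. Summed over cells, the mitotic list had 2117 CPM in members and 2736 in the other cells, but its median over cells was 1578 per 1000000 in members and 699 in the others. The top 10% of PC20 cells by mitotic score, 475 cells, had a median of 9814. Of the members 15 (3.16%) were among them, and of the other cells 460 (10.8%). Both sets are cuts of fixed size of the same cells, so these shares are a description. In PC5, 242 of 995 members (24.3%) and 8.41% of the other cells were in that library's mitotic top 10%. Without *Pclaf* in the score the PC5 share was 10.8%, and the PC20 share 2.11%. With the mitotic top 10% left out of the other cells, the median log2 ratio of the list in PC20 became 0.54, and with it left out of both groups 0.26. In PC5 the values were 2.05 and 1.51. The sign of the list's median in PC20 changed when these cells were left out. They were chosen by the same list, so leaving them out lowers its level in the other cells by construction.

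All kept cells were then ranked by score and cut in 10 bands, of which band 1 is the members. In PC20 the mitotic median was 1578 per 1000000 in the members and 2584 in band 4, then 1854, 759 and 442 in bands 5 to 7. The share of cells in the mitotic top 10% was 3.16% in band 1, 22.7% in band 4 and 20.9% in band 5. Histones had their highest median in the members, 1370.5, then 1188, 1040.1 and 726. In PC5 the mitotic median was highest in the members themselves, 1816, and the mitotic share in band 2, 27.4%. The number of UMIs of a cell also differed between bands, with a PC20 median of 33216 in the members, 40147 in band 4, 29791 in band 6, 37032 in band 9 and 22344 in band 10, and its part in these values was not tested.

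**Figure D5:**
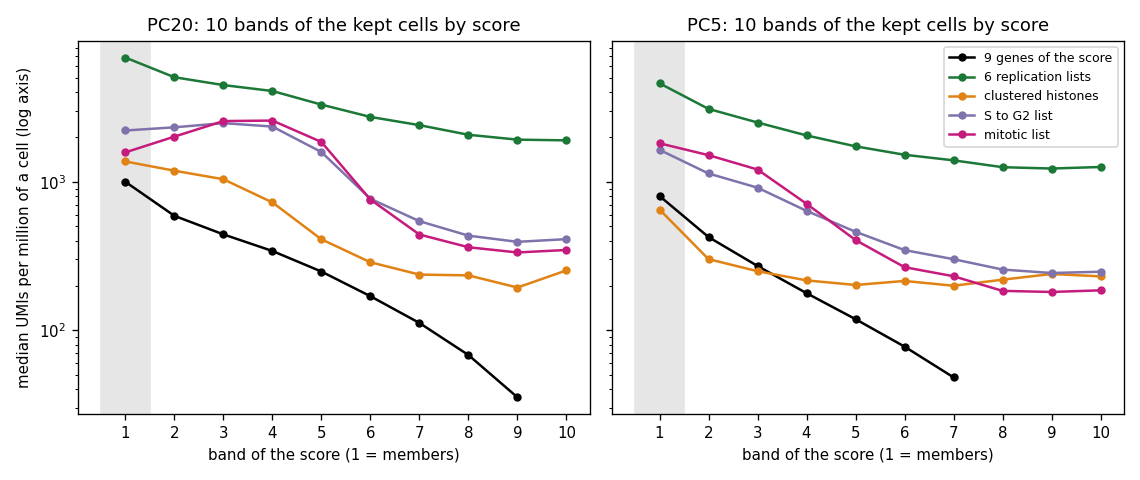
Median UMIs per 1000000 of a cell (log axis) for the score genes and 4 groups of lists in each of 10 bands of the kept cells by score, with members shaded at band 1, for PC20 and PC5. Medians of 0 are not drawn. The mitotic line peaks at band 4 in PC20 (2584) and at band 1 in PC5 (1816).

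Lists outside the cell cycle are read against the 6.34% higher and 2.6% lower over all measured PC20 genes, and with 12 to 20 genes a list a count of 0 or 1 is near that background. Of 12 p53 targets 0 passed 1.5-fold either way (median -0.17), and of 12 hypoxia genes 0 (-0.07). Of 16 glycolysis genes 1 was lower, *Aldoc*, an aldolase, at -0.65, and the median was 0.09. An *Aldoc* UMI was in 78.9% of members and 75.2% of other cells, and 1 other cell held 419 of its UMIs. *Gapdh*, the enzyme often used as a reference, had 2888 and 2909 CPM. Of 14 ATF4 targets, genes of the amino acid stress response, 1 was higher, *Shmt2*, a mitochondrial enzyme of one-carbon metabolism, with 160.2 and 104 CPM (0.63). *Ddit3*, the stress factor CHOP, had 754 and 908 CPM (-0.27). Genes of growth and the nucleolus had a median of 0.42 (0.58 in PC5), with 4 of 14 past 1.5-fold. *Nop56*, of the ribosomal RNA modifying particle, had 156 and 86.8 CPM (0.84), while *Npm1*, nucleophosmin, had 3693 and 3649 CPM (0.02). Of 12 immediate early genes 2 were lower, the AP-1 genes *Junb* (-0.88) and *Fos* (-0.72), and in PC5 their ratios were -0.27 and -0.76.

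Of 20 measured matrix genes 3 were lower and 0 higher, with a median of 0.07. *Ogn*, the proteoglycan osteoglycin, had 21.7 CPM in members and 63.7 in other cells (-1.55). *Bgn*, the proteoglycan biglycan, had 4.11 and 19.4 CPM (-2.24), and *Thbs1*, thrombospondin 1, had 3.65 and 6.98 CPM (-0.93). Of the other cells' UMIs, 36.8% for *Thbs1* and 23.2% for *Ogn* lay in 43 cells, and 1 member held 24 *Bgn* UMIs. In PC5 *Bgn* had 448 and 476 CPM (-0.09).

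The 10 lowest genes of PC20 were RNAs held by few cells. *Dio2*, a thyroid hormone deiodinase gene, had 2 UMIs in the members, 0.114 CPM against 3.03, a log2 ratio of -4.73 (-7.78 to -2.87). Among the other cells 143 (3.35%) had a *Dio2* UMI, and 72.2% of these UMIs lay in 43 cells. *Serpina3n*, a secreted protease inhibitor, had 1.26 and 6.61 CPM (-2.40), with 43.2% of the other cells' UMIs in 43 cells. Others of the 10 were *Wfdc3*, *Cdo1*, *Selenop*, *Ace*, *Lbp*, *Lmod1* and *Gpx3*, with ratios from -2.85 to -2.46 and a UMI in at most 11.02% of the other cells. For *Bgn* 65.1% of the other cells' UMIs lay in 43 cells. In PC5, *Selenop*, a selenium carrier, and *Lbp*, which binds bacterial lipid, were also lower in members (-1.55 and -1.32), while *Dio2* was not (0.22).

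Pericyte markers had few UMIs in PC20. Of 11 genes of pericytes and smooth muscle, 3 were measured, of which 2 were more than 1.5-fold lower in members and 0 higher, with a median log2 ratio of -0.77. Over all measured genes 2.6% were lower. In PC5, 1 of 4 measured was higher, *Cspg4*, a proteoglycan of pericytes (0.80), and 0 lower, with a median of -0.10. *Pdgfrb*, the receptor that marks pericytes, had 3.31 CPM (2.52 to 4.28) in members and 5.64 (5.29 to 6.00) in other cells (-0.77), and 40.9 and 45.0 CPM in PC5. *Anpep*, an aminopeptidase of pericytes, had 1.77 and 3.12 CPM (-0.82). *Acta2*, smooth muscle actin, had 36.8 and 50.4 CPM (-0.45), but a UMI in 40.2% of members and 32.9% of other cells, and 32.8% of the other cells' *Acta2* UMIs lay in 43 cells. In all kept PC20 cells 3 of the 11 were at 0 UMIs, among them *Rgs5*, a defining pericyte marker. Of 16 markers of other brain and blood cell types 8 were at 0 UMIs in PC20, among them *Ptprc*, the leukocyte marker. The list summed to 234 CPM in members and 229.5 in other cells, and nearly all of it was *Slc4a4*, a bicarbonate transporter gene also used as an astrocyte marker, with 232 and 228 CPM.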

How the data were processed

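The authors mapped the reads of 2 droplet libraries to mm10 with CellRanger (5.0 in the submitters' notes, 5.0.1 in the file headers), called cells, and deposited raw counts of UMIs for 31053 genes per barcode. Of these, 31011 gene identifiers matched GENCODE M21. The filter kept barcodes in which more than 1000 genes had a UMI and mitochondrial genes took under 20% of UMIs. UMIs were summed over cells and scaled to CPM, so cells with more UMIs weigh more. The 95% intervals are exact, from the Poisson distribution for CPM and from the binomial for ratios (conditional on the sum). No doublet caller was run and no cells were clustered. Samples were grouped by passage.

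The members and the 21 gene lists were chosen with earlier results of these data known. Named genes were the score genes, list members that a sentence needed, the 5 histone genes with the most UMIs, and the 15 highest and 10 lowest outside the score, without pseudogenes or unnamed models. Of these, 1 of the highest and 1 of the lowest are not reported here. Genes compared between the Mcm groups, genes named for their spread over cells and the histone limits were chosen after their values were seen. Alternatives were other top shares, scores, filters, depths, weights, minimums, folds and contrasts. The calculation of the ratios was run on simulated Poisson counts with known folds. Simulated members were not chosen by score and their cells differed only in depth, so only the calculation was checked. Python 3.11.15, numpy 2.4.6, scipy 1.17.1 and pandas 2.3.3 were used.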

Additional observations from a re-analysis of the deposited data

Results flagged for a closer look

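The mitotic list had a median log2 ratio of members over other cells of opposite sign in the libraries, -0.43 in PC20 and 1.20 in PC5. It drew attention because the same contrast went opposite ways at the passages. The difference was not tested, since each passage has 1 library. With the top 10% of cells by mitotic score left out of the other cells the medians were 0.54 and 2.05. With these cells left out of both groups the medians were 0.26 and 1.51. The same list chose these cells, which lowers its level in the other cells by construction. No agreement between the libraries is read from these signs. Over cells, the mitotic list had a median of 1578 per 1000000 in PC20 members and 699 in the other PC20 cells.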

How the results depend on the processing

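No paired analysis was possible because each passage has 1 library. Over the alternatives, 0 of the results run under them changed sign from a value past 1.5-fold. Of 818 list medians 793 shifted by at most 0.25 on the log2 scale and 25 by more, up to 0.97. Single genes were run for the score, the 5 histones, the 15 highest and 10 lowest genes, and some genes of the Mcm groups. The other named list members, such as *Cdc20*, were not run. Of the log2 ratios run, 1111 stayed within the counting interval of the main value and 279 moved. None of these moved to the opposite side of 0 from a value past 1.5-fold. The cause was not tested. In PC20 the count of higher genes was 985 in the top 5%, 367 with a minimum of 2000 UMIs and 215 at a fold of 2, and that of lower genes 411, 111 and 82, with 578 at a minimum of 100 UMIs. In PC5 higher genes numbered 609 and 430 at that minimum of 2000 and at a fold of 2, and lower genes 156 and 108, with 744 at a minimum of 100. In the top 5% of PC20 the medians were 1.70 for polymerases and fork, -0.36 for CDK inhibitors and 0.17 for the matrix. Without the mitotic top 10% among the other cells they were 0.26 for CDK inhibitors, 0.91 for S to G2 and 0.54 for mitotic genes, and without it in both groups 0.85 and 0.26 for the latter lists. In the top 20% the mitotic median was -0.14, and as a mean over cells it was -0.17. The share of PC20 members in the mitotic top 10% was 0.844% in the top 5% and 5.89% in the top 20%. With the score without *Pclaf* the PC20 median of CDK inhibitors was -0.37. In PC5 the S to G2 median was 2.22 with the mitotic top 10% left out of the other cells, and the mitotic median was 2.05 then and 1.51 with it left out of both. The PC5 mitotic median was also 1.54 in the top 20%, 1.02 on thinned cells, 1.35 as a mean over cells and 0.42 with the score without *Pclaf*, which also gave 0.94 for S to G2 and 1.22 for clustered histones. The 6 replication lists had a median of 1.34 in PC5 at a minimum of 2000 UMIs. The share of PC5 members in the mitotic top 10% was 20.5% in the top 5% and 10.8% without *Pclaf*. Cells of at least 10000 UMIs, an alternative chosen after seeing the data like the Mcm groups without mitotic cells, gave 644 higher and 268 lower genes in PC20. Lists with fewer than 5 measured genes have no median here.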
